A study of Mus musculus with 5 samples.

Results

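The clustered protocadherins are the 58 genes of the Pcdha, Pcdhb and Pcdhg families on mouse chromosome 18, taken here from the 27179 genes of the count table by their symbols. They comprise 14 alpha, 22 beta and 22 gamma genes. Their expression was measured by RNA sequencing in the ear skin of B6 mice that lacked Cd1d (Cd1d -/-, called KO, 2 libraries) and of control mice (3 libraries). For the controls the titles read Cd1d +/- while their genotype tag reads WT. Cd1d encodes an antigen-presenting molecule for lipids, which natural killer T cells recognise, and the series asked how the skin transcriptome differs without it. No label gives the age or sex of the mice, a treatment, or whether each library came from a separate mouse, so the p-values measure the spread between these 5 libraries, which may be technical.

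Protocadherins of the clusters are cell-surface proteins of the cadherin superfamily, best known in neurons. Their extracellular domains bind the same isoform on a neighbouring cell, which lets the branches of a neuron tell themselves from those of other neurons. In the alpha and gamma clusters each gene has its own large first exon, with its own promoter, that encodes the extracellular and membrane-spanning parts. This exon is spliced to constant exons at the end of the cluster, which encode a cytoplasmic end common to all members. Beta genes carry their coding sequence in a single exon and lack that common end. The transcription factor CTCF and the cohesin complex join the promoters to distant enhancers. The C-type members (Pcdhac1, Pcdhac2, Pcdhgc3, Pcdhgc4 and Pcdhgc5) lie at the ends of the alpha and gamma clusters and are expressed more evenly among neurons than the others. In skin, expression of these genes in keratinocytes, fibroblasts, nerves or vessels cannot be resolved in a whole-tissue library, where fewer cells of a type and less RNA per cell cannot be told apart.

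The alpha cluster spans positions 36930285 to 37188897 of chromosome 18 (GRCm38, RefSeq), the beta cluster 37264998 to 37521419 and the gamma cluster 37661775 to 37841873. The constant exons decide what a count of an alpha or gamma gene can mean. In the GENCODE annotation every alpha gene shares at least 2860 exon bases with the other alpha genes, and every gamma gene at least 2116 exon bases with the other gamma genes. Among beta genes the only overlap was of 455 bases, between Pcdhb21 and Pcdhb22. The sources used here do not say how reads in shared exons were counted. The lowest count of any gamma gene in a library was 34, 33 and 9 in control replicates 1, 2 and 3 and 6 in each KO library. Reads of the constant exons, had they been assigned to every gamma gene, could not exceed these numbers. Whether such reads were dropped or assigned to a single gene, Pcdhgc3 for example, was not tested. Levels are given per kilobase of exon that no other gene of the table shares, and would be too high for a gene that received reads of shared exons. Beta genes resemble each other in sequence, and reads that fit several of them may have been dropped or split.

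Total counts ranged from 32353957 to 79160005 per library, and 0.00608% to 0.0104% of them fell on the 58 genes. The counts of Cd1d1 were 557, 757 and 182 in controls against 61 and 48 in KO, so its level followed the labels. Markers of keratinocytes, which make up the epidermis, summed to between 27830 and 33210 CPM (counts relative to library size, scaled with TMM factors) in the 5 libraries, as the label skin implies. A library that stood apart was KO replicate 1, where 10 genes of hair shaft and inner root sheath summed to 657.8 CPM against 12.5 to 24.2 CPM in the other libraries.

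Gamma and beta genes were expressed in ear skin, and alpha genes were close to the detection limit. Of the 14 alpha genes, 9 had 0 counts in all 5 libraries, and all 14 together had 50 reads in the study out of 24919 on all members. Pcdhac2, a C-type member, held 26 of the 50, with 4, 14 and 1 counts in the controls and 5 and 2 in KO. Pcdha5 was the other alpha gene read in every library, at 4, 3 and 1 in controls against 2 and 2 in KO. Pcdha3 counts were 2, 0 and 0 in controls against 0 and 5 in KO, and those of Pcdha12 were 2, 2 and 0 against 0 in both KO libraries. Pcdhac1 was among the genes with 0 counts throughout. A count of 0 allows up to 3 counts, which is 0.0356 CPM in control replicate 1, the deepest library, and 0.091 CPM in control replicate 3, the shallowest. These limits cover counting error only. If reads of shared exons were dropped, they refer to unshared exons alone, which for Pcdha4 are short, since 5274 of its 5768 exon bases are shared, with the other alpha genes and with the read-through gene Gm37013, which also had 0 reads. No alpha gene had enough counts to be tested, and no difference between KO and control was detectable at this depth.

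Pcdhgc3, a C-type gamma member, had the highest level of the 58 genes in every library. Its level was 9.51 ± 1.8 CPM per kilobase in controls (SD, n = 3) and 6.44 ± 0.90 in KO (SD, n = 2). This was 3.88 to 6.4 times the level of Pcdhb17, the next gene, over the 5 libraries. The multiple depends on the gene model. Over its shorter RefSeq span Pcdhb17 had a mean of 2.46 CPM per kilobase, against 1.72 over its GENCODE exons, which would lower the multiple. Pcdhgc3 took 58% of the gamma counts in control replicate 1 (95% Wilson interval 56.6 to 59.4), 53% in replicate 2 (51.3 to 54.6) and 60.4% in replicate 3 (58.3 to 62.5). The KO libraries, at 57.1% (54.7 to 59.4) and 57.4% (55.1 to 59.7), lay inside the range of the controls. The gamma A genes took 21.1% to 27.8% of gamma counts and the gamma B genes 13.5% to 14.7% over the 5 libraries, with the KO libraries inside the control range for both. The other C-type gamma genes were far lower, with 0.498 ± 0.090 CPM per kilobase in controls for Pcdhgc4 and 0.156 ± 0.045 for Pcdhgc5.

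**Figure D1:**
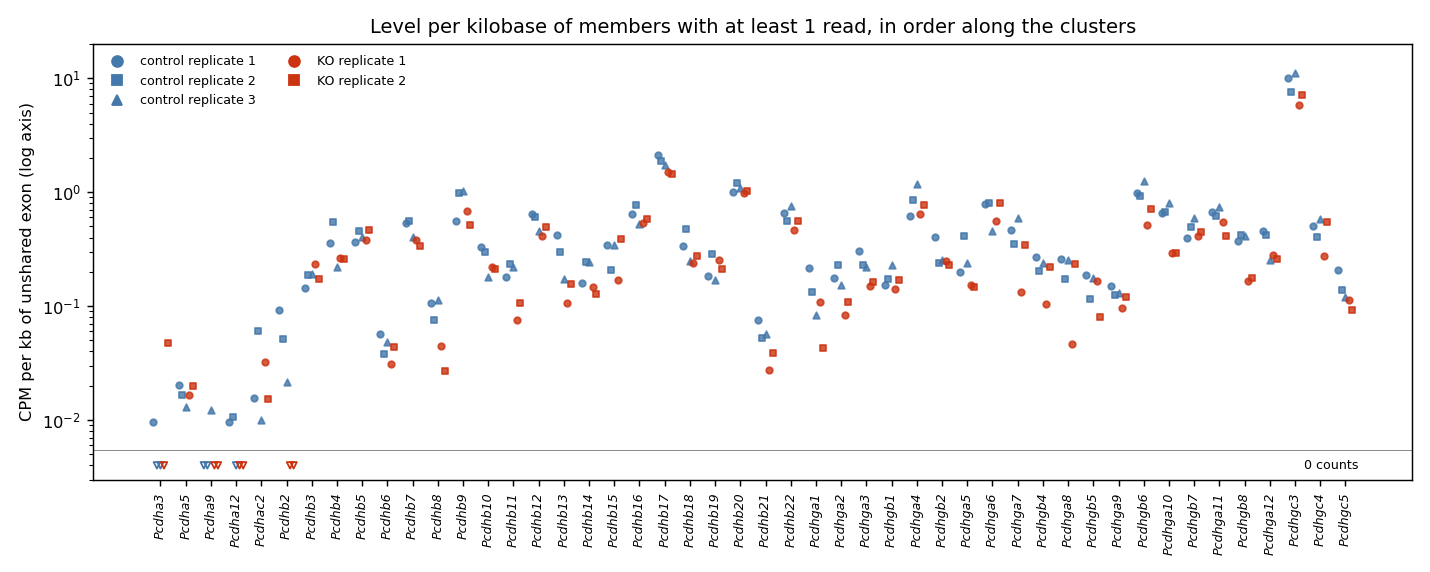
Level of the 48 members with at least 1 read, in order along the alpha, beta and gamma clusters. Each point is a library, as CPM per kilobase of unshared exon on a log axis, and open triangles under the line mark libraries with 0 counts. Pcdhgc3 lies above every other member, Pcdhb17 follows, and the 5 alpha genes lie near the bottom with Pcdhb2, Pcdhb6 and Pcdhb21.

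Among the other genes, levels differed from gene to gene within a cluster more than between libraries. The leading beta genes were Pcdhb17 at 1.9 ± 0.19 CPM per kilobase in controls, Pcdhb20 at 1.11 ± 0.10 and Pcdhb9 at 0.861 ± 0.26. Pcdhb17 held 20.4% to 24.9% of the beta counts over the libraries. The order after Pcdhb17 depends on the gene model, since over the shorter RefSeq span Pcdhb22 reached 1.2 CPM per kilobase against 0.599 over its GENCODE exons. At the other end, Pcdhb1 had 0 counts in all libraries and Pcdhb6 had 0.0479 ± 0.0093 CPM per kilobase in controls. Pcdhb2 had 22, 11 and 2 counts in the controls and 0 in both KO libraries, where 0 allows up to 0.0587 and 0.07 CPM, and it was too low to be tested. In the gamma A group Pcdhga4 (0.882 ± 0.28 CPM per kilobase in controls), Pcdhga10 (0.708 ± 0.081), Pcdhga6 (0.683 ± 0.20) and Pcdhga11 (0.677 ± 0.068) did not differ beyond their spread. In the gamma B group Pcdhgb6 led at 1.05 ± 0.17, followed by Pcdhgb7 at 0.496 ± 0.099 and Pcdhgb8 at 0.402 ± 0.028. In all, 22 of the 58 genes reached a mean of 1 CPM, 12 beta and 10 gamma. Spearman's rho between level per kilobase and order along the chromosome was 0.42 over 22 beta genes and 0.33 over 22 gamma genes, a description of genes that share libraries and a locus.

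The count filter left 42 of the 58 genes for the comparison of KO with control, 20 beta and all 22 gamma. Pcdhga10 fell and the other 41 did not pass (edgeR quasi-likelihood test, Benjamini-Hochberg over 17472 genes, threshold 0.05). Over all genes tested, 1.05% passed as lower and 3.76% in either direction, so a count of 1 in 42 is near the background. Below the threshold, the fitted values lay mostly on the low side. The log2 fold change was negative for 39 of 42 members, where 52.4% of all tested genes were negative. Its median was -0.37 over beta and -0.56 over gamma members, against -0.02 over all tested genes. Both KO libraries lay below all 3 controls for 18 of the 42 (7 beta and 11 gamma), which is 42.9% beside 20% of all tested genes. In 0 of the 42 did both KO libraries lie above all controls, beside 19.9% of all tested genes. The members share a locus, and within gamma a set of exons, so they do not stand for independent observations.

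**Figure D2:**
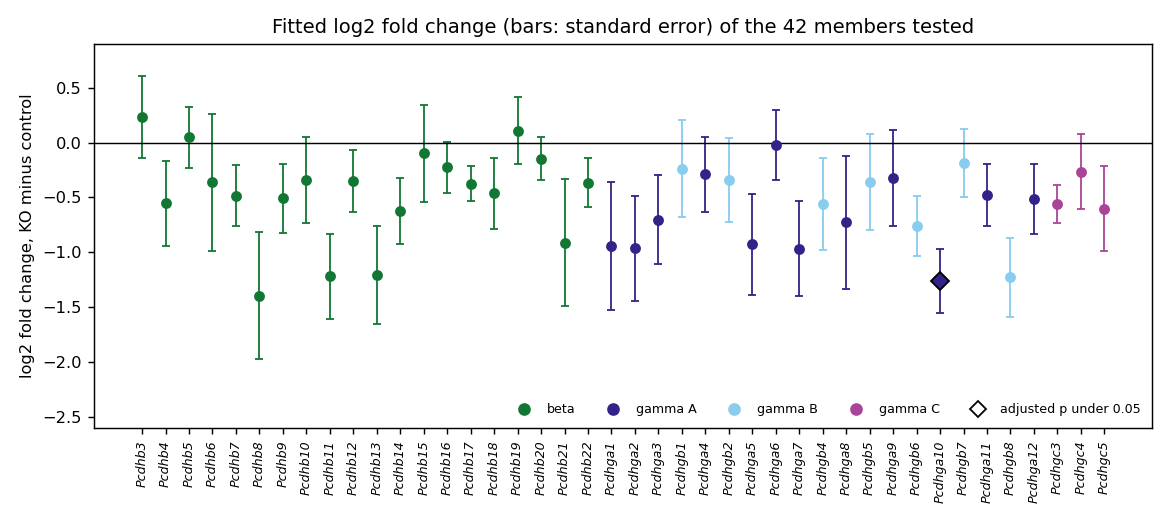
Fitted log2 fold change (KO minus control) of the 42 tested members in order along the clusters, with standard errors as bars. Points lie mostly below 0, down to -1.40 for Pcdhb8, and the diamond marks Pcdhga10, whose adjusted p was under 0.05.

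The summed levels of the clusters were lower in both KO libraries. Beta genes together had 39.4, 42.5 and 36.9 CPM in the controls (replicates 1, 2 and 3, the order used throughout) against 30.5 and 31.5 CPM in KO (replicates 1 and 2). The KO mean was 21.7% below the control mean. Gamma genes together had 58.1, 48.1 and 61.8 CPM in controls and 34.4 and 41.7 CPM in KO, and the KO mean was 32.1% below. The groups did not overlap for either sum. The 3 gamma groups differed by like amounts, with KO means 33.2% below the controls for gamma A, 32.2% for gamma B and 31.6% for gamma C. The gamma sum without Pcdhgc3 was 31.7% below. These sums describe the libraries and carry no test.

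**Figure D3:**
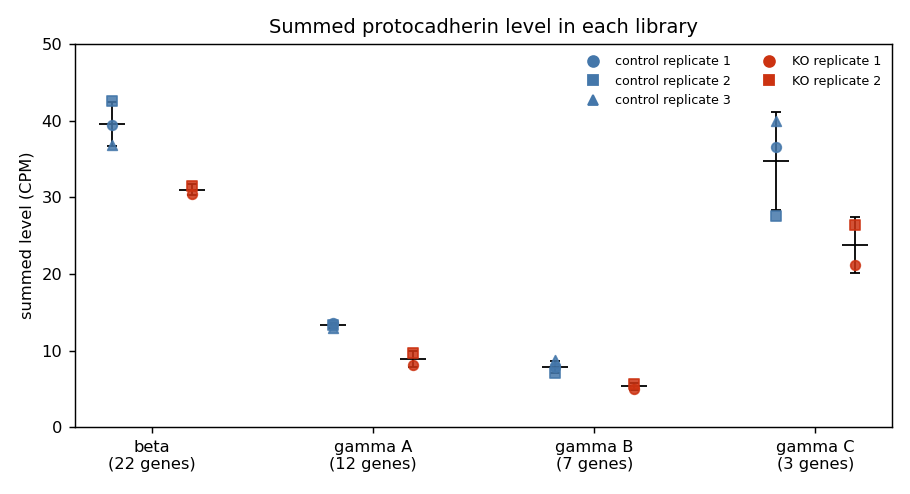
Summed CPM of the beta, gamma A, gamma B and gamma C genes in each library, with the mean and SD of each group. The KO libraries lie below the controls in all 4 sets, by the least in gamma C, where control replicate 2 (27.6 CPM) lies near KO replicate 2 (26.4 CPM).

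Pcdhga10, a gamma A member (positions 37747016 to 37841870), was counted 144, 134 and 69 times in the controls against 39 and 33 times in KO. These are 1.71, 1.75 and 2.09 CPM in controls and 0.764 and 0.77 CPM in KO. The KO libraries were close to each other and well below every control. It fell 2.4-fold, a log2 fold change of -1.26 ± 0.29 (SE) with an adjusted p = 0.0438 in edgeR's quasi-likelihood test. Its share of the gamma counts was 2.94% to 3.64% in the controls and 1.85% to 2.22% in KO. Without control replicate 1 the adjusted p was 0.176 (edgeR), in a fit where 0 of 17072 genes passed, and limma voom gave 0.0619. The log2 fold change stayed between -1.21 and -1.31 in these fits and with KO replicate 1 or 2 left out. An antisense or overlapping transcript could not be told apart from it, since the strand setting is not given.

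Pcdhgc3, the most abundant member, was counted 2841, 1952 and 1230 times in controls against 1002 and 1025 times in KO. Its levels were 33.7, 25.5 and 37.3 CPM in controls and 19.6 and 23.9 CPM in KO. The groups did not overlap, but control replicate 2 lay close to KO replicate 2. Its log2 fold change of -0.56 ± 0.17 (SE) did not pass (adjusted p = 0.096, edgeR). The adjusted p was 0.00868 without control replicate 2 (edgeR), where the log2 fold change was -0.71. It was 0.0336 with DESeq2, and in edgeR 0.0423 with offsets on transcript length and GC content and 0.0368 with library size alone. Pcdhgc3 did not pass with limma voom (adjusted p = 0.112). In edgeR it did not pass with length offsets alone (0.372) or without control replicate 1 (0.325). Without KO replicate 1 or 2 its log2 fold change was -0.42 or -0.71. The neighbouring C-type genes did not pass either, with log2 fold changes of -0.27 for Pcdhgc4 (SE 0.34) and -0.60 for Pcdhgc5 (SE 0.39). For Pcdhgc4 the KO libraries disagreed, at 0.959 and 1.91 CPM, and the groups overlapped.

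In the gamma B group, Pcdhgb8 had the lowest fold change. Its levels were 0.925, 1.06 and 1.03 CPM in controls and 0.411 and 0.444 CPM in KO. The replicates of each group lay close together and apart from the other group. The log2 fold change was -1.23 (SE 0.36, edgeR adjusted p = 0.0836), which did not pass. Pcdhgb6, the most abundant gamma B gene, had 2.53, 2.36 and 3.19 CPM in controls and 1.31 and 1.84 CPM in KO, with a log2 fold change of -0.76 (SE 0.27) that did not pass. Pcdhgb7 had -0.18 (SE 0.31) and Pcdhgb5, the gamma B gene with the lowest level per kilobase, had -0.36 (SE 0.44), both with overlapping groups.

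Within gamma A the members were spread from Pcdhga10 down at -1.26 to Pcdhga6 at -0.02 (SE 0.32). Pcdhga6 had 2.08, 2.1 and 1.18 CPM in controls and 1.47 and 2.1 CPM in KO, so its groups overlapped. Pcdhga7 had 1.45, 1.09 and 1.82 CPM in controls and 0.411 and 1.07 CPM in KO, with a log2 fold change of -0.97 (SE 0.43) that did not pass and KO libraries far apart. Pcdhga4, the highest gamma A gene per kilobase, had -0.29 (SE 0.34), and Pcdhga11 had -0.48 (SE 0.28). Pcdhga1, the lowest tested gamma A gene per kilobase, was counted 59, 33 and 9 times in controls against 18 and 6 times in KO. At such counts the standard error of its log2 fold change (-0.94) was 0.58. For 7 of the 12 gamma A genes (58.3%) both KO libraries lay below all controls. This share was 20% over all tested genes. It was 35.4% over other genes within the transcript length range of the gamma members.

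No beta gene passed, the smallest adjusted p being 0.103, for Pcdhb11 (edgeR). At an unadjusted p under 0.05, 9 of the 42 members were lower (4 beta and 5 gamma) and none higher, where 10.3% of all tested genes were lower. The 4 beta genes, named after their values were seen except for Pcdhb8 and Pcdhb17, were Pcdhb8, Pcdhb11, Pcdhb13 and Pcdhb17. Pcdhb11 had 0.794, 1.03 and 0.971 CPM in controls and 0.333 and 0.467 CPM in KO, a log2 fold change of -1.22 (SE 0.39). Pcdhb13 had 1.55, 1.11 and 0.637 CPM in controls and 0.392 and 0.583 CPM in KO, so control replicate 3 lay next to the KO libraries (log2 fold change -1.21, SE 0.44). Pcdhb8 was counted 31, 20 and 13 times in controls against 8 and 4 times in KO, and its log2 fold change of -1.40 had a standard error of 0.58. Pcdhb17, the most abundant beta gene, had 9.79, 8.67 and 8.04 CPM in controls and 6.97 and 6.67 CPM in KO. The groups of Pcdhb17 did not overlap, with a log2 fold change of -0.38 (SE 0.16) that did not pass.

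Over all 20 tested beta genes, 17 had negative log2 fold changes and 3 positive ones. Beside the 4 above, both KO libraries lay below all controls for Pcdhb21 (log2 fold change -0.91, SE 0.58), Pcdhb14 (-0.63, SE 0.30) and Pcdhb7 (-0.48, SE 0.28), named after their values were seen. Pcdhb20, which is second per kilobase, differed by -0.15 (log2, SE 0.20), and Pcdhb9 by -0.51 (SE 0.31), both with overlapping groups. Positive values were found for Pcdhb3 (0.23, SE 0.37), Pcdhb19 (0.11, SE 0.31) and Pcdhb5 (0.05, SE 0.28). Pcdhb6, the lowest tested beta gene per kilobase, had 6 to 18 counts in every library and a log2 fold change of -0.36 (SE 0.63). The median standard error was 0.36 over the 42 members and 0.16 over all tested genes, and 15 of the 42 had fewer than 20 counts in some library.

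**Figure D4:**
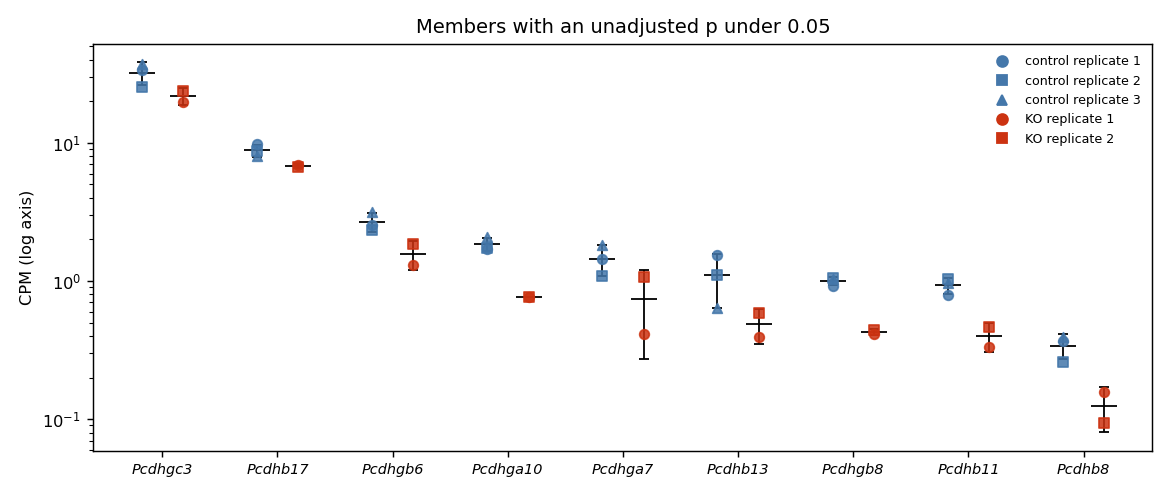
CPM (log axis) of the 9 members with an unadjusted p under 0.05 in each library, ordered by level, with the mean and SD of each group. All 9 are lower in KO, and the KO libraries lie under every control in each gene, by a small gap in Pcdhga7 (1.07 against 1.09 CPM).

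Transcript length moved with the fold change over the whole data set. Spearman's rho of the log2 fold change with the length of the longest annotated transcript was -0.55 over 15809 tested genes, a description across genes that share the libraries. Tested gamma transcripts had a median of 4721.5 bases and tested beta transcripts 3723.5, against 3271 for all tested genes. Other tested genes within the length range of the gamma members (4615 to 5777 bases, 1803 genes) had a median log2 fold change of -0.18, and both KO libraries lay below all controls in 35.4% of them. Other genes within the wider range of the beta members (2801 to 8695 bases, 8845 genes) had a median of -0.12 and a share of 28.3%. The corresponding values of the members were -0.56 and 50% for gamma and -0.37 and 35% for beta. Negative log2 fold changes were found in 76.3% of other genes in the gamma range and 68% in the beta range. Among the members the shares were 100% for gamma and 85% for beta. With offsets that remove the trend of each library on length and GC content, the median was -0.47 for gamma and -0.25 for beta, and 37 of 42 members were negative. In that fit Pcdhga10 and Pcdhgc3 passed, where 583 of all 17472 genes passed, 119 of them lower. With length offsets alone no member passed, where 20 of all genes passed, 5 of them lower (edgeR). There an unadjusted p under 0.05 was found for 7 of the 42 members and for 2129 of all 17472 genes. Among the members themselves rho with length was -0.06 over 20 beta genes and 0.23 over 22 gamma genes.

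**Figure D5:**
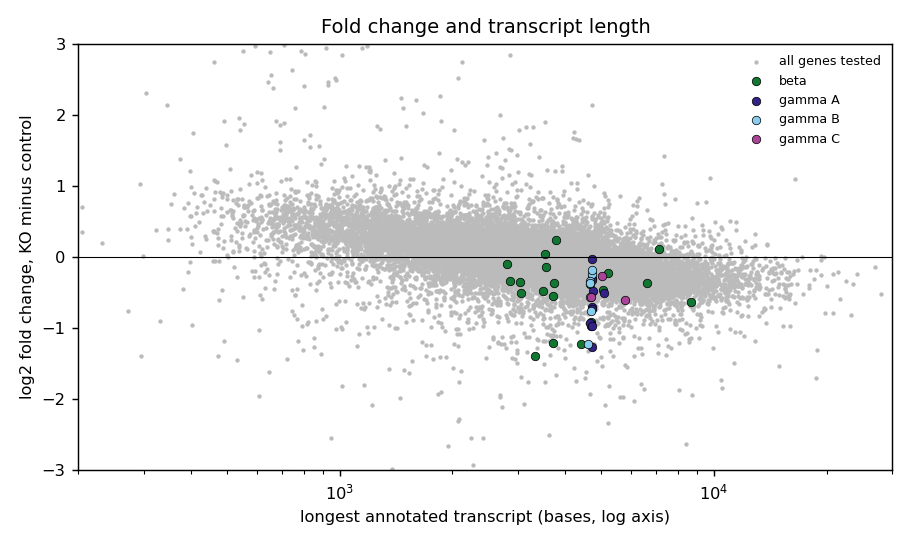
Log2 fold change (KO minus control) against the longest annotated transcript (bases, log axis) for tested genes, with protocadherins coloured by group. Grey points slope down with length, and 86 of them fall outside the plotted range. The gamma members form a column around their median of 4721.5 bases that reaches from -0.02 to -1.26.

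Of 17 tested genes around the clusters 0 passed in either direction (edgeR), and their median log2 fold change was -0.01. Their transcripts had a median of 3340 bases, against 4721.5 for tested gamma and 3723.5 for tested beta members. The part of transcript length in this was not tested. With 1 more that could not be tested, the 18 genes summed to between 695.5 and 697.8 CPM in controls and to 718.9 and 755.3 CPM in KO, so both KO libraries lay above the controls. Taf7, a subunit of the general transcription factor TFIID that lies between the beta and gamma clusters (37640491 to 37644204), differed by -0.01 (log2, SE 0.16). Slc25a2, a mitochondrial carrier gene next to it, was too low to be tested. Diaph1, a regulator of actin filaments just beyond the gamma cluster, had -0.45 (SE 0.13), and Zmat2, on the far side of the alpha cluster, had 0.39 (SE 0.11). Neither passed, and the KO libraries lay outside the control range in both.

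Genes known to act on the clusters or with their proteins were mostly not past the threshold. Of 12 genes for CTCF and cohesin, 1 fell, 0 rose and 11 did not pass, with a median of -0.19. Their transcripts had a median of 5770 bases, against 3271 for all tested genes. Over all tested genes 1.05% passed as lower. The gene that fell was Pds5a, a cohesin regulator, at 33.9, 32.4 and 31.6 CPM in controls and 20.9 and 24.3 CPM in KO (log2 fold change -0.53, SE 0.13, edgeR adjusted p = 0.0473). Its log2 fold change was -0.18 with length and GC offsets, where it did not pass (adjusted p = 0.387). Stag1, a subunit of cohesin, had -0.54 (SE 0.14), and Ctcf itself, named after its value was seen, had -0.38 (SE 0.12), both not past the threshold. Of 9 chromatin silencers 0 passed (edgeR), with a median of -0.13 and a median transcript length of 5870 bases. The DNA methyltransferase gene Dnmt3a had the smallest p among them (-0.42, SE 0.12), followed by Setdb1, for a histone H3 lysine methyltransferase (-0.22, SE 0.12).

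Of 24 genes for binding partners and cleavage, 2 fell, 0 rose and 22 did not pass, with a median of -0.11. Their transcripts had a median of 4041 bases. The share of all tested genes that passed as lower was 1.05%. Adam10, the protease that sheds the extracellular part of gamma protocadherins, had 45.6, 45.1 and 39.5 CPM in controls and 22.8 and 27.3 CPM in KO. Its log2 fold change was -0.79 (SE 0.13, edgeR adjusted p = 0.0203). Nckap1, a subunit of the actin-regulating WAVE complex that protocadherin tails can bind, had 99.1, 93.3 and 91.9 CPM in controls and 57.5 and 66.8 CPM in KO. Its log2 fold change was -0.61 (SE 0.12, edgeR adjusted p = 0.0286). In both genes the groups were well apart. With length and GC offsets both passed, and with length offsets alone neither did (adjusted p = 0.102 and 0.158, edgeR). Pds5a, Adam10 and Nckap1 did not pass without control replicate 1, where 0 of 17072 genes passed (edgeR), so that fit cannot set them apart from other genes. Fits without a KO replicate leave 1 KO library, and their adjusted p is not given for these genes.

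Solitary protocadherins, which lie outside the clusters and have no shared exons, had no gene past the threshold. Of 12 genes 9 could be tested and 0 passed (edgeR), with a median of -0.28. The tested transcripts had a median of 6521 bases, against 3271 for all tested genes. The part of transcript length in the medians of these related lists was not tested. Pcdh7 had 62.9, 64.8 and 59.7 CPM in controls and 51.6 and 47.3 CPM in KO (log2 fold change -0.34, SE 0.12), and Pcdh10 had -0.46 (SE 0.23). The most abundant of them, Pcdh1, named after its value was seen, had 0.17 (SE 0.15), with overlapping groups.

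Markers of cells that could carry these transcripts were summed in each library. The 10 Schwann cell markers, for the glia of skin nerves, lay between 1085 and 1224 CPM in controls and 1119 and 1202 CPM in KO, and 0 of 10 passed. The 9 sensory axon markers lay between 22.8 and 25.7 CPM in controls and 29.6 and 31 CPM in KO, so both KO libraries lay above the controls. Of these 4 could be tested, 0 passed, and Scn10a had 0 counts in all libraries. Merkel cell markers lay between 9.98 and 11.8 CPM in controls and 9.26 and 10.4 CPM in KO. Fibroblast markers lay between 25740 and 33230 CPM in controls and 26630 and 26950 CPM in KO, and keratinocyte markers overlapped likewise.

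Like the sensory axon sum, some other marker sums separated the groups. The 7 endothelial markers lay between 230.3 and 262.1 CPM in controls and 194.6 and 199.3 CPM in KO, with 0 of 7 past the threshold and a median log2 fold change of -0.41. Striated muscle markers lay between 4351 and 4747 CPM in controls and 5459 and 6364 CPM in KO, with 2 of 8 higher. Adipocyte markers, with 1 of 6 higher, lay between 582.3 and 958.5 CPM in controls and 997.4 and 1141 CPM in KO. The sums of the 6 melanocyte and 8 leukocyte markers were also above the control range in both KO libraries, with 0 genes past the threshold (edgeR). Single markers, named after their values were seen, went both ways. Log2 fold changes were 0.28 for Dct and -0.26 for Mitf (melanocyte), and 0.21 for Cd74 and -0.32 for Kit (leukocyte). For the adipocyte marker Pparg (-0.33) both KO libraries lay below all controls. Of all 17472 tested genes, 474 passed as higher. The markers that passed, Tnnc2, Mylpf and Cfd (700, 766 and 922 bases), had the shortest transcripts of their lists. Tested endothelial markers had a median transcript length of 4654 bases, muscle markers 2094 and adipocyte markers 2471. The part of transcript length in these sums was not tested. The part of these cell types, and of the hair follicle genes high in KO replicate 1, in the protocadherin values was not tested. Without KO replicate 1 the medians were -0.37 for beta and -0.48 for gamma, and no member passed (edgeR). There 3 of the 44 members tested, and 1910 of all 18041 genes, had an unadjusted p under 0.05, and 1 gene passed in all.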

How the data were processed

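Total RNA from ear skin was sequenced in 5 libraries, grouped by sample title, which also gives replicate numbers. The deposited table holds read counts per Entrez gene, whole numbers that the authors did not normalize. Per the submitters' processing notes, FastQC, HISAT2 2.0.4, DESeq2 1.16.1 and the build GRCm38 (mm10) were used. For the counting program, strand setting and handling of shared reads, the authors' choices were not given in the sources used here.

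Symbols and positions came from RefSeq (GRCm38.p6, 25275 of 27179 identifiers), and transcript lengths, GC content and exon overlaps from GENCODE M21, matched on Entrez identifiers (all 58 members; 21572 genes with a length). The filterByExpr function left 17472 genes, and TMM factors (0.936 to 1.07) scaled the libraries. KO was tested against control over all these genes by the robust quasi-likelihood F test of edgeR 4.0.16 in R 4.3.3, with p-values adjusted after Benjamini and Hochberg (threshold 0.05). Standard errors were derived from the F statistic. CPM are TMM-scaled. A read was worth 0.0126 to 0.0309 CPM before scaling. No pair of libraries within a group differed by sampling noise alone (chi-square per degree of freedom 22.9 to 76.3). The fit was tested on simulated data.

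The members and gene lists were chosen with earlier results of these data known. Named are members past the threshold, C-type members, in each group the highest and lowest levels per kilobase and the most extreme fold changes, and in related lists the genes past the threshold and the 2 with the smallest p. Exceptions are marked. A gene of the chromatin silencer list is not reported here. Alternatives were other scalings, count filters, robust estimation off, limma voom (3.58.1), DESeq2 1.42.0, a block on the replicate number, length offsets with and without GC content (mgcv), each replicate left out and, added after seeing the data, RefSeq spans as gene lengths. Promoter sequences are not used here.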

Additional observations from a re-analysis of the deposited data

How the results depend on the processing

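The number of members past the threshold was 1 in the main analysis, 3 with library size alone, 2 with DESeq2, 2 with length and GC offsets, 0 with length offsets and 0 with limma voom, and 0 to 2 with a replicate left out. It was 0 without control replicate 1 and without either KO replicate. No member passed as higher in any fit, and 0 alpha genes passed in the fits that tested any. The median of the alpha genes has no value, since none was tested in the main analysis. The beta median (-0.37) was -0.52 with library size alone and -0.25 with length and GC offsets, and -0.31 to -0.51 with a replicate left out. The gamma median (-0.56) was -0.71 with library size alone and -0.41 with length offsets, and -0.48 to -0.61 with a replicate left out. Scaling to library size alone moved the median of all genes to -0.16.

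Over all genes, 657 passed (474 higher, 183 lower). The count was 1242 with library size alone (268 higher, 974 lower), 1036 without a count filter and 1696 with DESeq2. It was 583 with length and GC offsets, 20 with length offsets, and 0 to 3277 with a control replicate left out. With 0, without control replicate 1, 2253 genes had an unadjusted p under 0.05 (edgeR). Replicate numbers do not pair the samples by label, and deviations of same-numbered libraries correlated at -0.001 and -0.131. With the replicate block 2037 genes passed, 2 of them members, Pcdhga10 and Pcdhb13.

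Pcdhga6 had a positive log2 fold change of 0.0927 with length and GC offsets, 0.12 with length offsets, 0.10 without control replicate 1, 0.10 without control replicate 2 and 0.21 without KO replicate 1. Pcdhgb5 had 0.0541 without KO replicate 2 and -0.97 without KO replicate 1. Pcdhgc4 had 0.16 without KO replicate 1 and -0.84 without KO replicate 2. The cause was not tested. Fits without a KO replicate assume that the remaining one varies as the controls do. Of the 42 tested members, 15 had fewer than 20 counts in some library, and the number of libraries also limits the precision.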
